A study of Homo sapiens with 9 samples.

Results

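The genes described here are the receptors of the epidermal growth factor (EGF) family other than ERBB2, together with the ligands that bind the family. They are 10 genes taken by name, namely 3 receptors (EGFR, ERBB3 and ERBB4) and 7 ligands (TGFA, AREG, EREG, HBEGF, BTC, EPGN and NRG1), out of 52158 named genes in the count table. The names were chosen by function, with earlier results of these data known. RNA was sequenced from 9 established human cell lines, ESO-26, ESO-51, FLO-1, JH_EsoAd1, OAC_5.1_C, OACP4_C, OE19, OE33 and SK-GT-4. The labels give each as oesophageal adenocarcinoma, with the gastric cardia, where the oesophagus joins the stomach, as the source. All were grown without a treatment to 80% confluency, and no group carries an introduced allele or agent. Each line is 1 library in the table, so differences between lines could not be set against replicates, no test was possible, and the intervals below cover counting error alone.

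Receptors of this family are single-span membrane proteins whose outer part binds a ligand and whose inner part carries a tyrosine kinase. Ligand binding lets receptors pair, and the paired kinases phosphorylate each other's tails, which recruit the adaptors of the RAS and PI3-kinase pathways. EGFR binds TGF-alpha (TGFA), amphiregulin (AREG), epiregulin (EREG), heparin-binding EGF-like growth factor (HBEGF), betacellulin (BTC) and epigen (EPGN). ERBB3 binds neuregulins such as NRG1, has a weak kinase of its own and signals mainly as a partner of the other receptors. ERBB4 binds neuregulins and also betacellulin, epiregulin and HBEGF. The ligands are made as membrane-bound precursors and released by metalloproteases, so that an epithelial cell can act on itself and its neighbours. EGFR is among the genes amplified in some oesophageal adenocarcinomas.

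Levels are CPM, that is, counts scaled to a common library total. A gene was called higher or lower in a line where log2(CPM + 1) lay at least 2 (4-fold) from the median of the other 8 lines and the higher of that line's CPM and the others' median was at least 5. The table held 16801179 (ESO-26) to 69881539 (FLO-1) counts per library. A few libraries stood apart from the rest. ESO-26 and OE33 were low in epithelial genes, with a median of 3.26 and 15.9 CPM over 8 epithelial markers against 203 to 990.0 CPM elsewhere. The adhesion gene EPCAM stood at 5.13 and 0.189 CPM in these lines, and the cadherin CDH1 at 0.173 and 21.5 CPM. OE33 was not low in every marker, since its keratin genes KRT8 (903 CPM) and KRT18 (247 CPM) stood far above those of ESO-26 (13.4 and 4.56 CPM), and KRT18 was 207 CPM in FLO-1. The summed level of 8 mesenchymal markers reached 1681 CPM in OE19, 644 in OE33 and 575 in ESO-26, against 3.14 to 111 CPM elsewhere. VIM gave 1679 CPM of that in OE19 and 616 CPM in OE33. In ESO-26 VIM gave 246 CPM and the collagen gene COL3A1 311 CPM. Haematopoietic markers summed to at most 25.8 CPM and the 4 endothelial markers in the table to at most 30.6 CPM. Mitochondrial genes took 24.7% of counts in JH_EsoAd1 and 1.48% to 7.04% elsewhere. ERBB2, the partner of every receptor described here, reached 18325 CPM in SK-GT-4, 3515 in ESO-51 and 1387 in OACP4_C. It was only 185 CPM in the library labelled OE19, a line known for amplified ERBB2, and 149 CPM in that labelled OE33. The labels are used as given, and the counts of calls without OE19 and SK-GT-4, or without ESO-26 and OE33, are given in the closing section.

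The receptor and ligand genes differed between lines far more than most genes. ESO-26 and OE33 nearly lacked several of them, while OACP4_C, OAC_5.1_C and JH_EsoAd1 held several at high levels. In RNA from a whole culture, fewer expressing cells and less RNA per cell cannot be told apart. All 10 are in the table and 8 reached 1 CPM in at least 2 lines, the filter for being tested, which NRG1 and EPGN missed. These 8 genes in 9 lines make 72 gene-line pairs, of which 14 were called higher (19.4%) and 16 lower (22.2%). Over all 17129 genes tested, 4.05% of gene-line pairs were called higher and 2.87% lower. The highest and lowest line differed by a median of 6.96 on the log2 scale for the 8 genes and by 2.04 for all genes tested. Calls fell unevenly over the lines. In ESO-26 7 of the 8 genes were called lower, where 6.68% of all genes were, and in OE33 5 were, where 4.34% of all genes were. In OACP4_C and OAC_5.1_C 3 genes each were called higher, against 3.35% and 4.55% of all genes, and none was called lower. The low epithelial markers of ESO-26 and OE33 moved with the low receptor and ligand genes, and their part in the result was not tested. With both lines left out, 7 pairs were called higher and 6 lower among the remaining lines. The share of all genes called without both lines was not computed, so these counts cannot be set against it. On the scale of the authors' FPKM, with the same minimum and pseudocount, 5 of the 14 higher and 12 of the 16 lower pairs lost their call. The share of all genes called on that scale was not computed either.

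**Figure D1:**
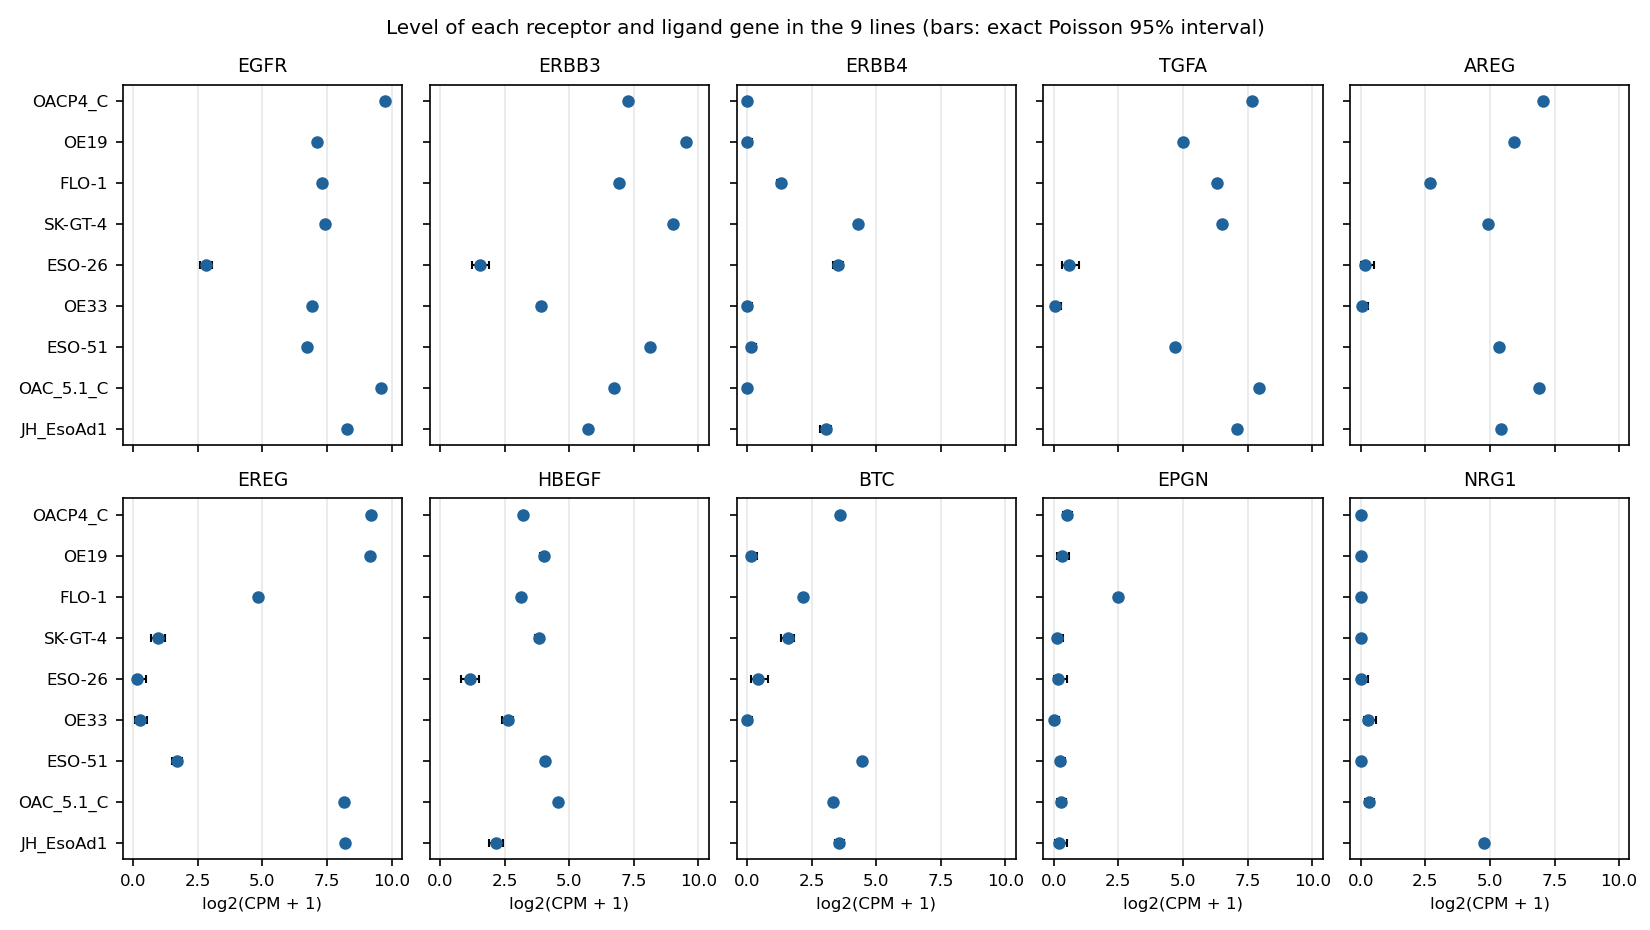
Level of each of the 10 genes (1 panel each) in the 9 lines, as log2(CPM + 1) on the horizontal axis, with each point 1 library and the bars an exact Poisson 95% interval. EREG spans 0.115 to 593 CPM, NRG1 stands above 1 CPM in JH_EsoAd1 alone, and the points of ESO-26 lie at the low end of most panels except ERBB4.

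EGFR was transcribed in every line, and a pair of lines stood well above the rest. In CPM, its level was 857 in OACP4_C, 762 in OAC_5.1_C, 307 in JH_EsoAd1, 172 in SK-GT-4, 157 in FLO-1, 138 in OE19, 120 in OE33, 106 in ESO-51 and 6.11 in ESO-26. None of the 8 neighbouring pairs in this order had overlapping 95% intervals, and the closest, SK-GT-4 and FLO-1, differed 1.09-fold. OACP4_C lay 2.53 and OAC_5.1_C 2.36 above the median of the other lines on the log2 scale, and both were called higher. ESO-26, with 106 counts, differed from it by -4.54, which is 23.2-fold lower on that scale, and was called lower. JH_EsoAd1 lay 1.05 above and was not called. The range of EGFR was wider than that of 97.0% of genes tested. The antisense transcript EGFR-AS1 lay between 0 and 2.02 CPM, and since the strand setting of the counts is not known, its reads and those of EGFR cannot be told apart where they overlap.

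Genes on either side of EGFR on chromosome 7 showed no call in any line. Of 11 listed neighbour names 10 are in the table, and 9 of those were tested. They made 81 gene-line pairs. Over all genes tested, 4.05% of pairs were called higher and 2.87% lower, shares that would give few calls among so few pairs. The widest difference among them was 3.39-fold, for PSPH in ESO-51. SEC61G, which encodes a channel subunit of protein translocation and lies next to EGFR, stood at 95.8 CPM in OAC_5.1_C against 21.8 in OACP4_C, and the other 8 lines had medians of 34.5 and 34.8 CPM. LANCL2, on the other side, stood at 22.6 against 11.7 CPM, and VOPP1, the next gene along, at 129 against 64.0 CPM. These 3 neighbours were thus above the median of the other lines in OAC_5.1_C, by 0.90 to 1.45 on the log2 scale, and between -0.65 and 0.13 from it in OACP4_C, the line with the most EGFR. DNA copy number was not measured.

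ERBB3 followed another order. In CPM, it was 726 in OE19, 511 in SK-GT-4, 280 in ESO-51, 154 in OACP4_C, 121 in FLO-1, 106 in OAC_5.1_C, 52.6 in JH_EsoAd1, 14.1 in OE33 and 1.96 in ESO-26, and no neighbouring intervals overlapped. OE19 lay 2.67 and SK-GT-4 2.16 above the median of the other lines on the log2 scale, and both were called higher. ESO-26 differed from it by -5.54 and OE33 by -3.18, and both were called lower. The 2 lines with the most EGFR were thus in the middle of the order for ERBB3. Its 11 listed neighbours on chromosome 12 were all tested and none was called, the widest difference being 3.82-fold, for MYL6 in ESO-51. They made 99 gene-line pairs, again few beside shares of 4.05% called higher and 2.87% lower over all genes tested.

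Per kilobase of gene length, EGFR exceeded ERBB3 in 6 lines and ERBB3 exceeded EGFR in 3. The deposited lengths were 16408 bases for EGFR and 24446 for ERBB3. The ratios depend on these lengths, whose error the intervals do not cover. In FLO-1 the counts themselves were 11800 for EGFR and 9060 for ERBB3. The ratio of EGFR to ERBB3 was 12.7 (11.4 to 14.2) in OE33, 10.68 (10.37 to 10.99) in OAC_5.1_C, 8.69 (8.14 to 9.28) in JH_EsoAd1, 8.30 (8.11 to 8.49) in OACP4_C, 4.64 (3.13 to 7.05) in ESO-26 and 1.94 (1.89 to 1.99) in FLO-1, with exact 95% intervals. It was 0.561 (0.543 to 0.580) in ESO-51, 0.5003 (0.485 to 0.516) in SK-GT-4 and 0.283 (0.273 to 0.293) in OE19. The ratio came from different genes in different lines. It was high in OACP4_C and OAC_5.1_C where EGFR was 52.2 and 46.5 CPM per kb, and high in OE33 where EGFR was 7.33 CPM per kb but ERBB3 0.577. SK-GT-4 and ESO-51, the 2 lines with the most ERBB2, were among the 3 with more ERBB3 than EGFR.

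**Figure D2:**
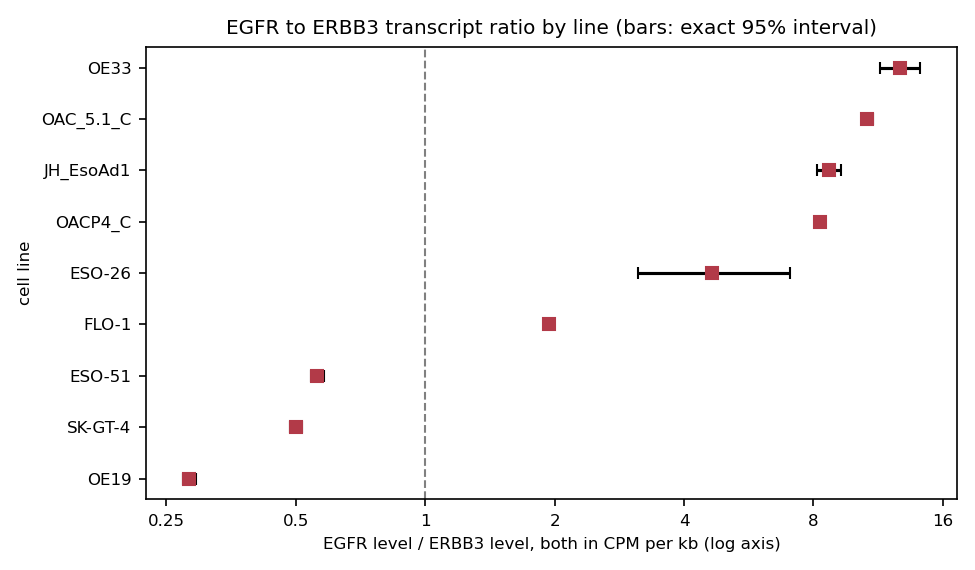
Ratio of EGFR to ERBB3 in each line, both in CPM per kilobase, on a log axis, with exact 95% intervals as bars and a dashed line at equal levels. OE33, at 12.7, is at the top and OE19, at 0.283, at the bottom, and 3 lines lie left of the dashed line.

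ERBB4 was scarce or not detected in most lines and reached 10 CPM in 2. In CPM, it was 18.6 in SK-GT-4 (579 counts), 10.6 in ESO-26 (184 counts), 7.24 in JH_EsoAd1 (146 counts), 1.48 in FLO-1 and 0.111 in ESO-51 (5 counts). The first 3 were called higher, by 4.22, 3.46 and 2.97 on the log2 scale, and all 3 calls ended with FPKM, where SK-GT-4 lay 0.76 above the others. OACP4_C, OE19, OE33 and OAC_5.1_C had 0 counts, which allows up to 0.0518, 0.107, 0.113 and 0.0617 CPM (3 counts). In ESO-26, where the other receptors were at their lowest, ERBB4 had the highest level per length of the 3, at 0.636 CPM per kb against 0.373 for EGFR and 0.0802 for ERBB3. In SK-GT-4 it was 1.12 CPM per kb beside 20.9 for ERBB3.

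Of the ligands, TGF-alpha came closest to the order of its receptor. In CPM, TGFA was 243 in OAC_5.1_C, 202 in OACP4_C, 135 in JH_EsoAd1, 90.2 in SK-GT-4, 78.9 in FLO-1, 30.7 in OE19, 24.7 in ESO-51, 0.519 in ESO-26 (9 counts) and 0.0377 in OE33 (1 count). No neighbouring intervals overlapped. OAC_5.1_C and OACP4_C were called higher, by 2.28 and 2.01 on the log2 scale, and ESO-26 and OE33 lower, with differences of -5.81 and -6.36. Leaving out OE19, ESO-26, OE33 or ESO-51 ended both higher calls, with OAC_5.1_C then at 1.61 and OACP4_C at 1.34. OACP4_C lay just past the 4-fold rule, and AREG in the same line, 1.93 above the median, just short of it. The 5 lines with the most EGFR were the 5 with the most TGFA.

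Amphiregulin, epiregulin, betacellulin and epigen are encoded side by side on chromosome 4, where the RefSeq order of protein-coding genes runs MTHFD2L, EPGN, EREG, AREG, BTC, PARM1. Their promoters are printed because these neighbours differed in which lines transcribed them. Each window is the 250 bases before the first base of the gene (RefSeq, GRCh38.p14), 5′ to 3′ on the gene's strand. The windows are EPGN at chr4:74308220-74308469 (plus strand), EREG at chr4:74364895-74365144 (plus), AREG at chr4:74444886-74445135 (plus) and BTC at chr4:74794524-74794773 (minus). Capitals mark exact matches to the cyclic AMP response element TGACGTCA and to the TATA box letters TATAAA, on either strand.
EPGN: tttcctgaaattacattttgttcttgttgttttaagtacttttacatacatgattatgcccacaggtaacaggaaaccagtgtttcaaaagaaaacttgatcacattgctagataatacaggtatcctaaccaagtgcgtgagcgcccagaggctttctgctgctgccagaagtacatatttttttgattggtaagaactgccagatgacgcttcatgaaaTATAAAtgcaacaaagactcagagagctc
EREG: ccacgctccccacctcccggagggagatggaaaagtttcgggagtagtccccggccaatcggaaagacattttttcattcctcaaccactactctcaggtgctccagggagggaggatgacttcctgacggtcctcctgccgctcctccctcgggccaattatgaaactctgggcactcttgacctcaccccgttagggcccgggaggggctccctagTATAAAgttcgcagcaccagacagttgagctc
AREG: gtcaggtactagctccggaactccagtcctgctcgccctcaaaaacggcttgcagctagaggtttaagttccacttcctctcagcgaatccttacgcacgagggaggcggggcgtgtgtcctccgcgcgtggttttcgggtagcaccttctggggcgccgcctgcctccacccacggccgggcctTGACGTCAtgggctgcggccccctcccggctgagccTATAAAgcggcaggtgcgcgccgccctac
BTC: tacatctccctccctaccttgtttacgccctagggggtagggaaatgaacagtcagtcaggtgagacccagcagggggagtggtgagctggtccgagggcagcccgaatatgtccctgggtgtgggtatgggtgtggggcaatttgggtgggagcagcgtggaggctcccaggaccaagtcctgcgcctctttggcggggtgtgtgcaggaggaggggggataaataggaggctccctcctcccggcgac
TATAAA lies at bases -29 to -24 in EPGN, -32 to -27 in EREG and -29 to -24 in AREG, counted from the gene's start, and 10.7% of 35116 RefSeq promoter windows of this length hold it. TGACGTCA lies at bases -65 to -58 in AREG and is in none of the other windows of the genes studied here, while 1.65% of all windows hold it. Also searched on both strands were GGGCGG (GC box, in 42.6% of all windows), TGANTCA (AP-1 site, in 6.57%) and GGAATG (TEAD site, in 11.9%). AREG held GGGCGG at bases -9 to -4 and EREG held GGAATG at bases -175 to -170. The BTC window held none of the 5 motifs. None of these matches overlapped another in the 4 windows. The windows of EPGN, EREG, AREG and BTC are 38%, 58%, 65.2% and 62% G and C, with a median of 58% over all windows.

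EREG varied most of the 10 genes, over 9.06 on the log2 scale, a range wider than that of 99.6% of genes tested. In CPM, its level was 593 in OACP4_C, 575 in OE19, 289 in JH_EsoAd1, 287 in OAC_5.1_C, 27.3 in FLO-1, 2.25 in ESO-51 (101 counts), 0.932 in SK-GT-4 (29 counts), 0.189 in OE33 (5 counts) and 0.115 in ESO-26 (2 counts). Levels were thus 287 CPM or more in 4 lines and 2.25 CPM or less in another 4, with FLO-1 between. Every line except FLO-1 was called, with OACP4_C, OE19, JH_EsoAd1 and OAC_5.1_C higher by 4.91 to 5.95 on the log2 scale and ESO-51, SK-GT-4, OE33 and ESO-26 lower, with differences of -4.80 to -6.34. With 1 other line left out, the difference of OACP4_C ranged from 4.39 (without SK-GT-4, ESO-26, OE33 or ESO-51) to 7.51 (without OE19, FLO-1, OAC_5.1_C or JH_EsoAd1), and all 8 calls of EREG held. With FPKM the 4 higher calls held and the 4 lower ones ended. Those 4 differences were then -2.16 (ESO-51) to -2.43 (ESO-26), under the minimum level for a call. JH_EsoAd1 and OAC_5.1_C did not differ beyond counting error, nor did OE33 and ESO-26. Unlike TGFA, EREG was high in OE19, which ranked 6 of 9 for EGFR.

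AREG, encoded next to EREG, was, in CPM, 132 in OACP4_C, 117 in OAC_5.1_C, 60.5 in OE19, 41.6 in JH_EsoAd1, 39.7 in ESO-51, 29.0 in SK-GT-4, 5.43 in FLO-1, 0.115 in ESO-26 (2 counts) and 0.0377 in OE33 (1 count). FLO-1, ESO-26 and OE33 were called lower, with differences of -2.70, -5.22 and -5.33 on the log2 scale, and no line was called higher. That depended on the setting for OACP4_C, which lay 1.93 above the median of the other lines. Its difference was 2.03 when scaled by library size alone and 2.69 with FPKM. It was 2.15 without OE19, ESO-51, OAC_5.1_C or JH_EsoAd1, and stayed below 2 in the other settings. All these differences use the counts under the name AREG alone. The 4-fold rule was not applied to the sum with a second identifier, described below, so whether OACP4_C would be called with that sum was not tested. JH_EsoAd1 and ESO-51 overlapped within counting error, as did ESO-26 and OE33. The 2 neighbouring genes did not keep 1 proportion. Per length, EREG exceeded AREG by a ratio of 3.97 (3.77 to 4.17) in OE19, 2.91 (2.70 to 3.13) in JH_EsoAd1, 2.10 (1.89 to 2.35) in FLO-1 and 1.87 (1.83 to 1.92) in OACP4_C, and matched it in OAC_5.1_C at 1.03 (0.996 to 1.06). AREG exceeded EREG by a ratio of 74.5 (51.5 to 112) in SK-GT-4 and 42.3 (34.6 to 52.2) in ESO-51. ESO-26 and OE33 had too few counts of both for a ratio.

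Whether all reads of AREG are counted under its name cannot be told from the files. A second gene identifier, ENSG00000205595, which is counted in the files of the lines but stands outside the named table, followed AREG with a Pearson r of 0.999 over the 9 lines, the highest of 17691 identifiers compared, where the next was 0.965. Its counts were 0.870 to 1.38 times those of AREG in the 7 lines with more than 3 counts. The sources used here do not pair this identifier with a name. RefSeq lists AREGB as another name of AREG, and the genome build of the files, GRCh37, is known to hold a second copy of the gene. In CPM, the sum of both was 315 in OACP4_C, 254 in OAC_5.1_C, 129 in OE19, 84.9 in ESO-51, 82.8 in JH_EsoAd1, 61.4 in SK-GT-4 and 10.1 in FLO-1, and at most 0.115 in ESO-26 and OE33. Against this sum, the order of AREG and EREG per length turned in OACP4_C, where AREG exceeded EREG by a ratio of 1.54, and the 2 were nearly equal in FLO-1, at a ratio of AREG to EREG of 1.04. AREG then also exceeded EREG by 2.52 in OAC_5.1_C, where the table gave nearly equal levels. EREG still exceeded AREG in OE19 (1.56) and JH_EsoAd1 (1.24).

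BTC, which can bind both EGFR and ERBB4, was led by ESO-51 at 21.0 CPM, a line low in EREG and TGFA, where it was called higher by 2.57 on the log2 scale. In the other lines it was 11.1 in OACP4_C, 10.9 in JH_EsoAd1, 9.03 in OAC_5.1_C, 3.56 in FLO-1, 1.99 in SK-GT-4, 0.346 in ESO-26 (6 counts), 0.107 in OE19 (3 counts) and 0 in OE33, where 0 counts allow up to 0.113 CPM. OE19, ESO-26 and OE33 were called lower, with differences of -2.61, -2.33 and -2.76, and lost that call without OACP4_C, ESO-51, OAC_5.1_C or JH_EsoAd1. The higher call of ESO-51 ended with FPKM (1.86) and with a pseudocount of 5 (1.75). OE19 thus combined one of the highest levels of EREG with almost no BTC. EPGN was found mainly in FLO-1, at 4.65 CPM (349 counts), and at no more than 0.414 CPM in any other line. Its difference in FLO-1 was 2.28 on the log2 scale, under the minimum level for a call.

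Some genes flanking the chromosome 4 ligands also differed between lines. PARM1, beside BTC, was 74.9 CPM in ESO-51 and at most 4.69 CPM elsewhere, and was called higher in ESO-51, where BTC was also highest, by 5.23 on the log2 scale. RASSF6, a RAS-association domain gene on the far side of the cluster and not directly adjacent to it, was called higher in OE19 (97.5 CPM), ESO-51 (72.7 CPM) and SK-GT-4 (53.4 CPM) and lower in ESO-26 (0 counts) and OE33 (1 count), the lines low in most of the ligands. MTHFD2L, which lies directly beside EPGN, was called in no line. The 3 tested neighbours here made 4 pairs called higher (14.8%) and 2 called lower (7.41%) of 27, beside 4.05% and 2.87% over all genes tested.

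HBEGF, an EGFR and ERBB4 ligand, varied least of the 8 genes tested, over 3.44 on the log2 scale, and kept a low level in every line. In CPM, it was 22.99 in OAC_5.1_C, 15.7 in ESO-51, 15.1 in OE19, 13.1 in SK-GT-4, 8.38 in OACP4_C, 7.73 in FLO-1, 5.17 in OE33, 3.52 in JH_EsoAd1 and 1.21 in ESO-26 (21 counts). ESO-26 was called lower, with a difference of -2.38 on the log2 scale, and no other line was called. Neighbours overlapped within counting error in 4 of 8 pairs, among them ESO-51 with OE19 and OE19 with SK-GT-4. NRG1, the neuregulin that binds ERBB3 and ERBB4, was found almost solely in JH_EsoAd1, at 26.1 CPM (527 counts). OAC_5.1_C had 12 counts, OE33 had 6, and the other 6 lines had 0, which allows at most 0.0400 (FLO-1) to 0.173 CPM (ESO-26). JH_EsoAd1 also held ERBB4 at 7.24 CPM and ERBB3 at 52.6 CPM. Its ERBB3 ranked 7 of 9, with a difference of -1.36 from the median of the other lines on the log2 scale.

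Expressed per length and summed over the 7 ligand genes, ligand transcripts were 171 CPM per kb in OACP4_C, 125 in OAC_5.1_C, 118 in OE19, 82.4 in JH_EsoAd1, 28.1 in ESO-51, 25.5 in SK-GT-4, 20.5 in FLO-1, 1.12 in OE33 and 0.525 in ESO-26. The make-up differed as well. EREG was the leading ligand in OE19 (75.1%), JH_EsoAd1 (53.9%), OACP4_C (53.4%) and OAC_5.1_C (35.2%, with AREG at 34.3%). TGFA led in FLO-1 (48.6%) and, narrowly, in SK-GT-4 (44.5%, with AREG at 41.8%). AREG led in ESO-51 (52.0%), where BTC made up 24.0%. HBEGF led in OE33 (94.7%) and ESO-26 (47.3%), from 150 and 42 ligand counts in all. With the counts of the second AREG identifier added, AREG led in 4 lines, namely ESO-51 (73.4%), SK-GT-4 (64.4%), OAC_5.1_C (57.4%) and OACP4_C (53.5%). EREG then led in OE19 (58.1%) and JH_EsoAd1 (43.1%) and TGFA in FLO-1 (43.6%).

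**Figure D3:**
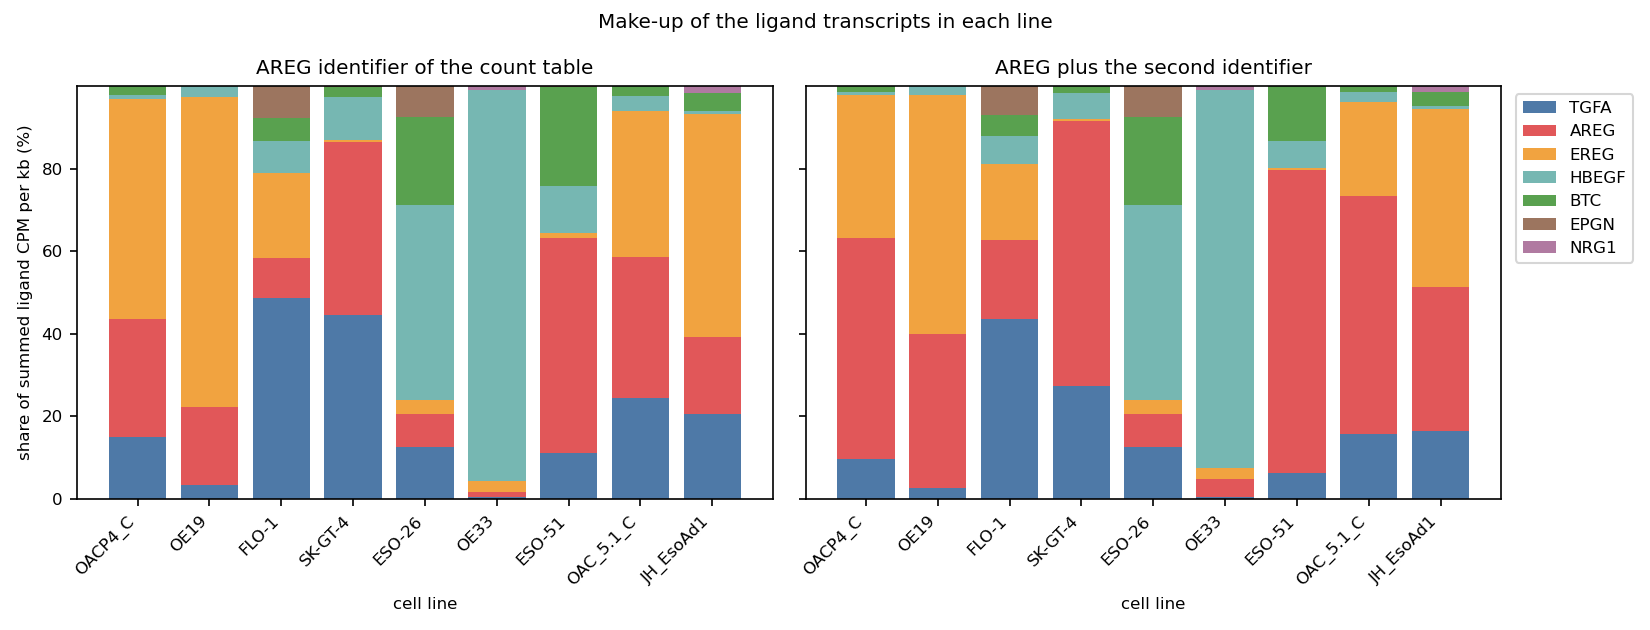
Share of each ligand gene in the summed ligand level of each line, in percent of CPM per kilobase, with AREG as in the count table (left) and with the counts of the second identifier added (right). On the left EREG is the largest part in 4 lines and AREG in 1, and on the right AREG is the largest in 4 and EREG in 2, while HBEGF fills 94.7% and 91.6% of the bar of OE33.

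The remaining genes of the pathway varied much less than the receptors and ligands. Of 45 listed genes 43 were tested, and 14 of their 387 gene-line pairs were called higher (3.62%) and 23 lower (5.94%), beside 4.05% and 2.87% over all genes tested, so that the higher share was near that of all genes. Their median range was 2.74 on the log2 scale, beside 2.04 over all genes. Among the other ligands, NRG4 was called higher in FLO-1 (11.3 CPM). Of the 8 sheddases and their regulators, which release ligands from the membrane, 7 were called in no line. Of their 72 gene-line pairs 1 was called higher (1.39%) and 0 lower, beside the 4.05% and 2.87% of all genes. ADAM17, the main releasing protease of TGF-alpha and amphiregulin, lay between 37.7 CPM in OE19 and 121 CPM in JH_EsoAd1. The exception was ADAM12, at 9.52 CPM in FLO-1. ESO-26 and OE33, the lines with the fewest ligand transcripts, held 47.3 and 59.5 CPM of ADAM17.

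Adaptors and effectors, which link the receptors to RAS and PI3-kinase, gave 3 pairs called higher (2.78%) and 4 lower (3.70%) among 12 genes, near the 4.05% and 2.87% of all genes. In OE33 the adaptors SHC1 (672 CPM) and GAB2 (78.5 CPM) were higher, and in FLO-1 GAB2 was lower (3.44 CPM). The receptor substrate EPS8 was lower in OE33 (8.37 CPM) and in ESO-26 (14.4 CPM), where the other lines had a median of 130.1 CPM. The 6 ubiquitin ligases, which mark receptors for degradation, gave 2 pairs called higher (3.70%) and 4 lower (7.41%), beside the same shares of all genes. Of these ligases 4 were called in no line. CBLC, the family member of epithelial cells, was higher in FLO-1 (103 CPM) and SK-GT-4 (82.2 CPM) and lower in OE19 (0 counts, which allows up to 0.107 CPM), OE33 (1 count) and JH_EsoAd1 (3 counts). The other ligase called was lower in ESO-26 only.

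Feedback inhibitors, which are induced by or act against receptor signalling, gave 7 pairs called higher (5.19%) and 15 lower (11.1%) among 15 genes. Over all genes tested, 4.05% of pairs were called higher and 2.87% lower, so that the higher share was near that of all genes. ESO-26 had 7 of the 15 called lower (6.68% of all genes were) and none higher, OE33 had 3 lower (4.34% of all genes) and ESO-51 had 3 lower (2.77% of all genes) and 1 higher. DUSP4 and DUSP6, phosphatases that act on the ERK kinases, were lowest in ESO-26, at 0.519 CPM (9 counts) and 0.346 CPM (6 counts), with differences of -7.23 and -4.82 from the median of the other lines on the log2 scale. DUSP6 was called higher in OACP4_C (178 CPM) and OE19 (161 CPM), 2 lines rich in EREG, but not in OAC_5.1_C (49.8 CPM) or JH_EsoAd1 (21.4 CPM), which were also rich in it. DUSP4 was 6.74 CPM in ESO-51 and 10.1 CPM in OE33, both called lower. DUSP5 was 184 CPM in OACP4_C, 5.28 above the median of the other lines. ERRFI1, an inhibitor that binds the EGFR kinase itself, reached 1215 CPM in OE19 and 53.96 CPM in ESO-51, the lowest of the 9 lines. The highest minimum over the lines among the 15 genes was that of ERRFI1.

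**Figure D4:**
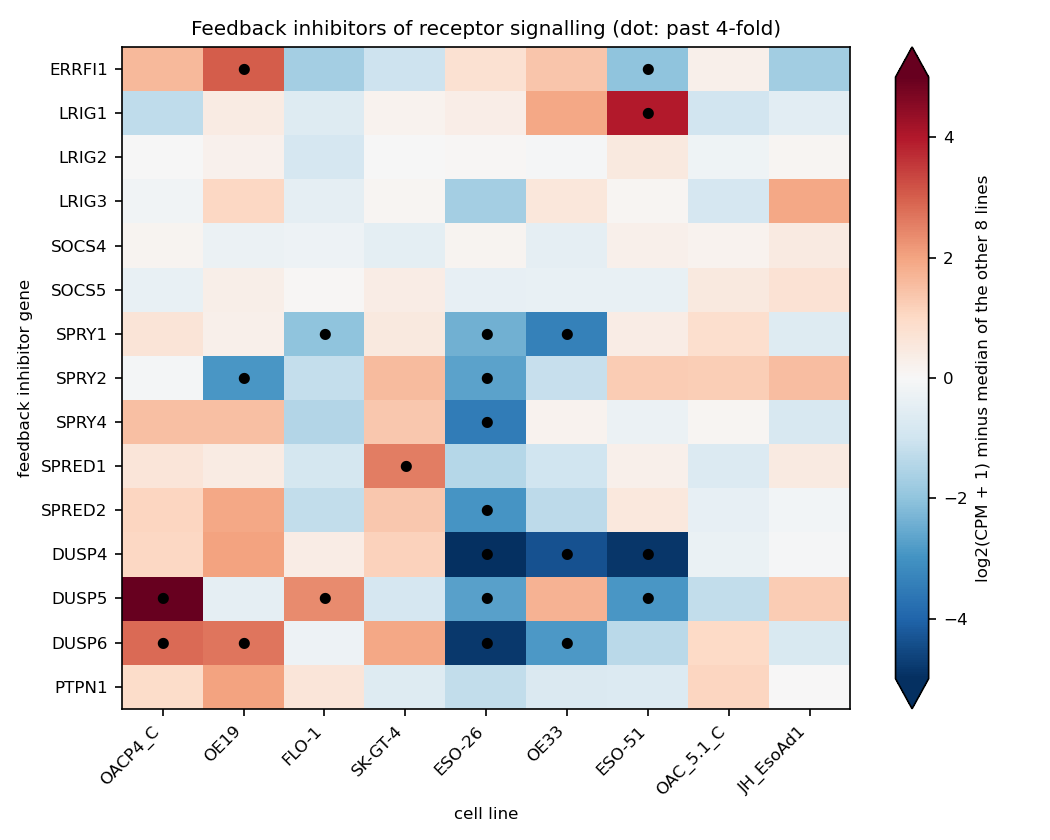
Difference of each of 15 feedback inhibitor genes (rows) in each line (columns) from the median of the other 8 lines, on the log2(CPM + 1) scale, with red higher and blue lower, colours ending at 5 in either direction, and a dot where the 4-fold rule was passed. The column of ESO-26 has 7 blue dots and no red one, and those of OAC_5.1_C and JH_EsoAd1 have none.

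Across the 9 lines, TGFA was the member most like EGFR, with a Pearson r of 0.79 and a Spearman rho of 0.93. AREG (r 0.76) and EREG (r 0.69) came next. TGFA and AREG had an r of 0.88, AREG and its neighbour EREG 0.75, ERBB3 and HBEGF 0.84, and EGFR and ERBB3 0.58. These are descriptions over 9 single libraries that share a scaling step, and ESO-26 is at or near the bottom for most of these genes. Without ESO-26 and OE33, over 7 lines, EGFR and TGFA had an r of 0.91. EGFR and ERBB3 then had an r of -0.53 and ERBB3 and TGFA one of -0.64, so that those 2 relations changed sign, and AREG had an r of 0.35 with TGFA and 0.52 with EREG. ERBB3 and HBEGF had an r of 0.56.

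The genes with the most similar profiles were looked up for the 7 members that reached 10 CPM in at least 3 lines. Among 10611 genes at 10 CPM or more in at least 3 lines, the profiles most like that of EGFR over the 9 lines were those of BAIAP2 (r 0.957), NOD1 (0.956) and STAMBPL1 (0.949), while TGFA ranked 289 of 17128 genes tested. For ERBB3 they were SLC37A1 (0.973), the epithelial transcription factor KLF4 (0.966) and DENND2D (0.966). TGFA was matched by C1orf116 (0.996) and MAML2 (0.973). C1orf116, like TGFA, was highest in OAC_5.1_C (304 CPM) and lowest in OE33 (0.0377 CPM). For AREG they were CCNK (0.965), DENND3 (0.959) and SPRY1 (0.957), the last a feedback inhibitor of the listed pathway. For EREG they were the antisense RNA AFAP1-AS1 (0.974), the non-coding RNA CASC8 (0.968) and the interferon-inducible gene IFI16 (0.952). HBEGF was matched by SLC41A2 (0.938), URGCP (0.936) and TTC39A (0.934), and BTC by GIPC2 (0.941), TCEAL8 (0.927) and RTKN2 (0.925).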

How the data were processed

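RNA-seq of 9 cell lines was analysed from the files the authors deposited. Per the submitters' processing notes the tools were FastQC 0.11.7, STAR 2.6.1d and R 3.6.1 with build GRCh37. The counting program, annotation and strand setting are not given in these sources. The deposited table holds raw whole-number counts per gene name, per the file headers and its values, and the deposited files of each line hold counts, gene length and the authors' FPKM for 57905 identifiers. From the values, each FPKM is a count over gene length and over the file's summed counts. The design text mentions 3 technical replicates per line, but not how they enter a line's 1 column. The column OACM5.1_C was taken as OAC_5.1_C. Counts under a blank gene name (0.00485% to 0.00965%) stayed out.

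Counts were scaled with TMM (edgeR 4.0.16, R 4.3.3, factors 0.831 to 1.11) computed on genes that reached 1 CPM in 2 or more lines, and used as log2(CPM + 1) without a test. Poisson intervals are exact (95%), and 0 counts are given a floor of 3 counts. Levels of different genes were compared per kilobase of the deposited length, and the intervals of their ratios do not cover error in that length. Other steps used Python 3.11.15 (matplotlib 3.10.9, pandas 2.3.3, scipy 1.17.1, numpy 2.4.6), and DESeq2 1.42.0 gave alternative size factors. The call rule was run on simulated Poisson counts with the same mean in every line, apart from set fold changes. Such counts hold no other spread between lines, so they cannot show how the rule behaves with it. Promoter windows came from a RefSeq table (GRCh38.p14), in which 8 of the 10 genes were used. Named genes are the 10 studied, at most the 4 largest called differences per listed role, and for each member at 10 CPM in 3 lines the 3 genes of highest r, of which 1 is not reported here. SEC61G, LANCL2, VOPP1, PSPH, MYL6, ADAM17, ERRFI1, MTHFD2L and EGFR-AS1, and further values of the genes so named, were added after their values were seen. The members and lists were chosen with earlier results of these data known.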

Additional observations from a re-analysis of the deposited data

Results flagged for a closer look

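Counts of gene identifier ENSG00000205595, which has no row in the named count table, reached 10614 in OACP4_C, where AREG itself had 7673. The signal was noticed because it lies in data outside the main measurement. Its counts were 6644 in OAC_5.1_C, 2037 in ESO-51, 1930 in OE19, 1008 in SK-GT-4, 832 in JH_EsoAd1, 354 in FLO-1, 2 in OE33 and 0 in ESO-26. AREG had 5684, 1784, 1698, 903, 839, 407, 1 and 2 counts in the same order of lines.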

How the results depend on the processing

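Each line has 1 library, so intervals cover counting error alone and spread between cultures is unknown. No paired analysis was possible because each line has 1 sample. The share of all genes called was computed for the main setting alone. The counts of calls under other settings therefore have no such share to be set against. For the receptor and ligand genes, the 14 pairs called higher were 23 at a 2-fold rule, 6 at an 8-fold rule and 7 without ESO-26 and OE33, and the 16 called lower were 4 with the deposited FPKM and 6 without ESO-26 and OE33. Without OE19 and SK-GT-4 they were 11 and 15. Leaving out 1 line at a time gave 11 to 16 higher and 10 to 16 lower, the lowest without ESO-26. For the other pathway genes, the 14 higher were 60 at 2-fold and 3 at 8-fold, and 12 to 18 with 1 line left out. Their 23 lower were 10 with FPKM, 13 with a pseudocount of 5, 11 without ESO-26 and OE33, 64 at 2-fold and 12 at 8-fold, and 14 to 23 with 1 line left out, the lowest without ESO-26. For chromosomal neighbours, the 4 higher were 1 with FPKM, 16 at 2-fold, and 2 (without ESO-51) to 4 with 1 line left out. The 2 lower were 0 with FPKM, 0 with a pseudocount of 5, 15 at 2-fold, and 1 (without OE33) to 4 (without SK-GT-4) with 1 line left out. FPKM and the larger pseudocount shrink low values by construction, and the other causes were not tested. With the second identifier added, chosen after seeing the data, EREG led the ligands in 2 lines and not 4, TGFA in 1 and not 2, and AREG in 4 and not 1. Of 476 correlations recomputed, 351 moved by less than 0.1 and 17 changed sign. Of these, 5 had an r of at least 0.5 in size with all lines, namely EGFR and ERBB3 without ESO-26 (r -0.10, and up to 0.67 with another line left out) and without ESO-26 and OE33 (-0.53), and without those 2 lines EGFR and HBEGF (-0.036), ERBB3 and TGFA (-0.64) and TGFA and HBEGF (-0.21). The other 12 were weaker, among them ERBB3 with BTC (-0.64), ERBB3 with EREG (-0.34), EREG with HBEGF (-0.20), HBEGF with BTC (-0.17) and EREG with BTC (-0.10) without both lines, and ERBB3 with ERBB4 (0.16) and ERBB4 with TGFA (0.29) without ESO-26. Of 140 recomputed differences of a highest line, 87 moved beyond the counting interval. None changed sign, which leaving out another line or changing the pseudocount could not have brought about. Leaving out the pairs of lines was chosen after seeing the data.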
